A study of Mus musculus with 2 samples.

Results

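Sprouty and Spred genes were compared between E13.5 PGCs that had received a control lentivirus and PGCs that had received a Klf9 overexpression (Klf9-OE) lentivirus, after 1 day in culture. The set was chosen by gene symbol as the 4 Sprouty genes (Spry1, Spry2, Spry3 and Spry4) and the 3 Spred genes (Spred1, Spred2 and Spred3) of the mouse. All 7 were found in both files, among 23320 symbols that the files share, and each had a single row in each library. The family was taken up because its FPKM was known to differ between these libraries, so its values are a description. PGCs, the precursors of eggs and sperm, came from E13.5 embryos of MCH females mated with Oct4-deltaPE-GFP males kept on a C57BL/6J background. Genital ridges from embryos of both sexes were dissociated, and cells with intense GFP were collected by cell sorting. Infection was at MOI 5, for Klf9-OE with the CSII-EF vector into which the Klf9 coding region had been placed, and the cells were then grown on gelatin-coated plates with LIF. Which of the control vectors of the study was used for the control library is not given in the sources used here. The sample labels give a bFGF-containing GS medium for both libraries, whereas the paper describes the RNA-seq culture as lacking bFGF. Each condition is 1 library, so no difference below has a replicate check and none was tested.

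Sprouty and Spred proteins are membrane-associated inhibitors of signaling from receptor tyrosine kinases to the MAP kinase ERK. Growth factors such as FGFs activate their receptors, adaptor proteins pass the signal to Ras, and Ras starts the kinase cascade of Raf, MEK and ERK. Sprouty genes are induced by this cascade and act back on it, and are for that reason called feedback inhibitors. Spred proteins carry an EVH1 domain, bind neurofibromin, the Ras GTPase-activating protein encoded by Nf1, and bring it to the membrane. Both families share a cysteine-rich Sprouty domain. bFGF and the KIT ligand, which signal through receptor tyrosine kinases, are among the classical factors of PGC culture and reprogramming.

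Levels are given as FPKM, a read count scaled to the length of the transcript and to the number of mapped reads. Since it is expressed per length, levels of different genes can be set side by side. The 95% interval of Cufflinks, the program that estimated the FPKM, follows each value in parentheses and covers the error of estimation within a library, not the difference between cultures. Klf9 itself was at an FPKM of 2.27 (1.97 to 2.57) in control and 80.8 (77.0 to 84.5) in Klf9-OE PGCs, and transcripts of the vector and of the endogenous gene are not separated in these values. The files hold no read totals. For genes with a single transcription start the width of the interval gives back a read number, and by this measure 1.22 reads stood behind the Klf9-OE library for each control read (median over 2851 genes, quartiles 1.2 and 1.23). Among named loci with 1 to 9 such reads (within 0.06 of a whole number), the number was even for 36.1% of 2197 loci in control PGCs and for 87.2% of 1835 loci in Klf9-OE PGCs. For this reason each Klf9-OE interval was also widened by the square root of 2, as if only every other read were distinct.

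The Sprouty and Spred genes are scattered over the genome and differ in structure. Coordinates are those of mm10, the build of the files, counted from 1. Spry1 lies on chromosome 3 from 37639947 to 37644599 on the forward strand and Spry2 on chromosome 14 from 105891947 to 105896819 on the reverse strand. Spry3 was placed by the files on an unlocalized scaffold of the X chromosome, from 101352 to 106392. In the GENCODE M21 annotation each Sprouty gene has 2 exons, of which 1 holds the entire coding sequence, of 864 to 945 nt. Spred1 lies on chromosome 2 from 117121071 to 117182277 on the forward strand, and Spred3 on chromosome 7 from 29158829 to 29168647 on the reverse strand. Spred2 lies on chromosome 11 on the forward strand and was assembled from 19924088 to 20023990 in control PGCs. Spred genes have 6 or 7 exons and a longer coding sequence, of 1224 to 1332 nt.

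The sequences just upstream of the transcription start are shown for Spry1, Spry2 and Spred1, which were chosen after their values were seen. Whether these letters bear on the differences between the libraries was not tested. Capitals mark the GC box GGGCGG and the CACCC box CACCC, letters that Sp and Klf factors are known to bind, on either strand. The sequences are from RefSeq (GRCm38.p6, the assembly of mm10), are written 5′ to 3′ on the strand of the gene and end at the base before the annotated start. They cover chr3:37639697-37639946 for Spry1, chr14:105896820-105897069 for Spry2 and chr2:117120821-117121070 for Spred1. The interval of Spry1 also holds an exon of Gm42922, an unclassified transcript model (TEC) of GENCODE.
Spry1: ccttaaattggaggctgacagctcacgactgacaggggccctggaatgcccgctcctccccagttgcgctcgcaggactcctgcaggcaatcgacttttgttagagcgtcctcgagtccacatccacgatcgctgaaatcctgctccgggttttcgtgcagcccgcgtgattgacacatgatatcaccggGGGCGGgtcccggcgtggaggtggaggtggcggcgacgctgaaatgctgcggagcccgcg
Spry2: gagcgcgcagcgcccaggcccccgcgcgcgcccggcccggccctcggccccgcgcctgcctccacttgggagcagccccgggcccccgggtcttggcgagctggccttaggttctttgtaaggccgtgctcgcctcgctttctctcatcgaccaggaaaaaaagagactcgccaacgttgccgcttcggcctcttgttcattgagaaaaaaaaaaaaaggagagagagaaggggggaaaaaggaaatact
Spred1: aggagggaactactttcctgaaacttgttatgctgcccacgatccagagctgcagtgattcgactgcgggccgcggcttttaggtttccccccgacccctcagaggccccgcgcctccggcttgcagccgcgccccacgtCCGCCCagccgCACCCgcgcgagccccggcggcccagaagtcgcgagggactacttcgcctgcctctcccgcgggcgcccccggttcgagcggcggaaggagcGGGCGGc

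Upstream sequences of 250 bases were available for 5 of the 7 genes (Spry1, Spry2, Spred1, Spred2 and Spred3). That of Spred2, chr11:19924192-19924441, overlaps an annotated exon of Spred2 itself. It also lies inside the assembled Spred2 locus, which starts at 19924088 in control and 19924081 in Klf9-OE PGCs. The letters given for Spred2 are thus not upstream of every start of that gene. The GC box was present in 4 of them, namely 1 copy each at Spry1 and Spred2, 2 at Spred1 and 3 at Spred3, and no copy was found at Spry2. Of all 32851 upstream sequences of this length, 32.7% hold it. The CACCC box was found at Spred1 and Spred3, against 52.0% of all upstream sequences. Of the sequences bound by the ETS factors that ERK signaling induces, only the form CCGGAA was searched. It was found in none of the 5 (12% of all). The shorter GGAA within it was not searched and can be read in the sequences of Spry1, Spry2 and Spred1. The cAMP response element TGACGTCA was found in none of the 5 either (1.55% of all). No match of a motif overlapped a match of another. The GC content was 62.4% at Spry1 and at Spry2, 70.8% at Spred1, 56.0% at Spred2 and 55.6% at Spred3, while the median of all upstream sequences was 52.4%. A match is a description of letters in this window and does not show binding.

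In control PGCs the family was carried by Spry2 and by the Spred genes Spred2 and Spred1, while Spry1, Spry4 and Spred3 were low. Spry2, the Sprouty gene with the highest level, had an FPKM of 16.4 (15.3 to 17.6). Spred2 followed with 14.7 (13.7 to 15.6), and the intervals of Spry2 and Spred2 overlapped. Spred1, the gene mutated in the human Legius syndrome, had an FPKM of 10.8 (10.1 to 11.5), below the interval of Spred2. Spry1 was at 2.62 (2.17 to 3.07), Spry4 at 0.580 (0.439 to 0.720) and Spred3 at 0.462 (0.191 to 0.733). The intervals of Spry4 and Spred3 overlapped, so their order is not settled. Spry3 was listed at 0 in both libraries, with bounds of 0, and was left out of the comparisons of levels.

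In Klf9-OE PGCs, each of the 6 Sprouty and Spred genes above 0 had a higher FPKM than in control PGCs, and Spry4 differed most. Spry4, an inhibitor of FGF and VEGF signaling, lies on chromosome 18 from 38586265 to 38601268 on the reverse strand and was at an FPKM of 0.580 in control and 4.60 (4.24 to 4.96) in Klf9-OE PGCs. The ratio of Klf9-OE to control was 7.94 with a 95% interval of 6.18 to 10.2, calculated from the Cufflinks intervals and covering the error of estimation only. On the scale of log2(FPKM + 0.1) this was a difference of 2.79, and 1.38% of the 12565 genes with an FPKM of at least 1 in at least 1 library had a difference as high or higher. The intervals of Spry4 imply 67.9 reads in control PGCs and 667 in Klf9-OE PGCs, so the ratio does not rest on a handful of reads. The interval of the ratio of Spry4 did not overlap that of any other member. In such bulk libraries fewer cells of a type and less RNA per cell cannot be told apart.

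Spry1, which restrains receptor tyrosine kinase signaling in the developing kidney, was at an FPKM of 2.62 in control and 4.80 (4.26 to 5.35) in Klf9-OE PGCs. The ratio was 1.83 (1.5 to 2.25), just short of 2-fold, with 134 reads implied in control PGCs and 308 in Klf9-OE PGCs. Spry2, whose conserved tyrosine near the N terminus is phosphorylated upon FGF stimulation, was at 16.4 in control and 23.3 (22.1 to 24.5) in Klf9-OE PGCs, a ratio of 1.42 (1.30 to 1.55). The ratio intervals of Spry1 and Spry2 overlapped. With this, the level of Spry4 relative to Spry2 was 3.53% in control PGCs and 19.7% in Klf9-OE PGCs. The level of Spry1 relative to Spry2 was 15.9% in control PGCs and 20.6% in Klf9-OE PGCs. Spry4, far below Spry1 in control PGCs, had an interval that overlapped that of Spry1 in Klf9-OE PGCs.

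Among the Spred genes, Spred3 had the highest ratio and the least certain. It was at an FPKM of 0.462 in control and 1.08 (0.899 to 1.26) in Klf9-OE PGCs, a ratio of 2.34 (1.29 to 4.26), just past 2-fold. Its row was assembled anew by Cufflinks in the control library and not in the Klf9-OE library. Its interval in control PGCs was wider, relative to the value, than in Klf9-OE PGCs. Spred1 was at 10.8 in control and 15.4 (14.5 to 16.2) in Klf9-OE PGCs, a ratio of 1.42 (1.31 to 1.54). Spred2 was at 14.7 in control and 17.7 (16.7 to 18.7) in Klf9-OE PGCs, a ratio of 1.21 (1.11 to 1.31), the lowest of the 6. Read numbers could not be taken from the intervals of the Spred genes, since their ratios departed by more than 10% from the ratios of FPKM after correction for depth.

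**Figure D1:**
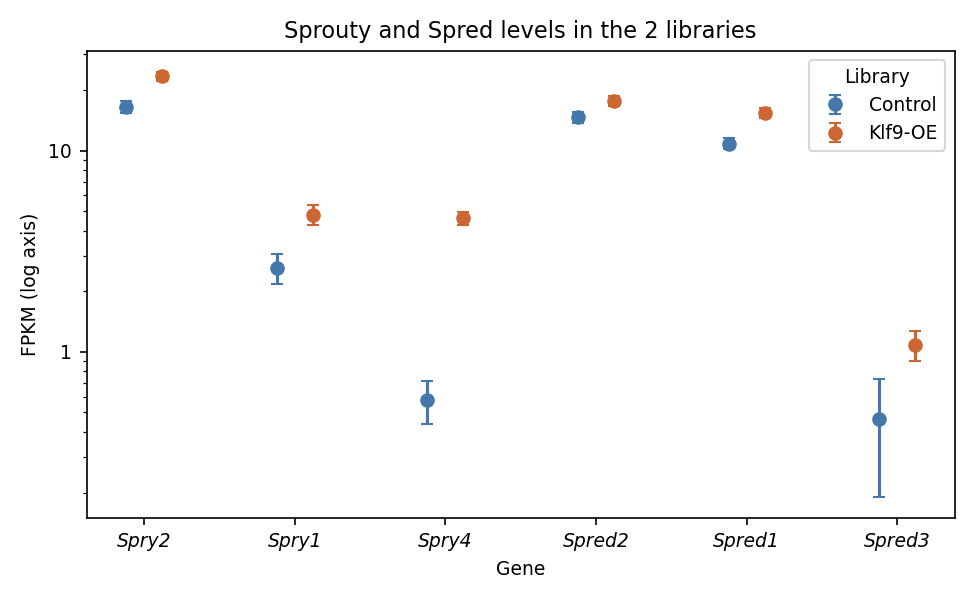
FPKM (log axis) of the 6 Sprouty and Spred genes above 0 in the control library (blue) and the Klf9-OE library (orange), where points are the estimates and bars the Cufflinks 95% intervals of 1 library each. The Klf9-OE point lies above the control point for all 6 genes, and Spry4 goes from 0.580 to 4.60, to a level whose interval overlaps that of Spry1.

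A call was set at 2-fold or more in either direction. Spry4 and Spred3, 2 of the 7 genes, passed it as higher in Klf9-OE PGCs, and 0 passed it as lower. The background over all 18742 genes above 0 in at least 1 library was 9.82% called higher and 9.43% called lower. Where an FPKM of 1 or more was required in either library, it was 3.93% and 3.79%. For 6 of the 6 genes above 0 the control and Klf9-OE intervals were apart, with Klf9-OE higher, and this count was still 6 with the widened Klf9-OE intervals. Of 18631 genes with a single row in each file, 11.2% had non-overlapping intervals and were higher in Klf9-OE PGCs, and 8.49% with the widened intervals. Of the 12508 such genes with an FPKM of at least 1 in either library, as all 6 members have, it was 14.8% before widening. The median log2 difference of the 6 genes was 0.68, against -0.02 over all genes. The family was taken up with these values known, so the counts describe the genes and are no evidence that they stand apart.

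**Figure D2:**
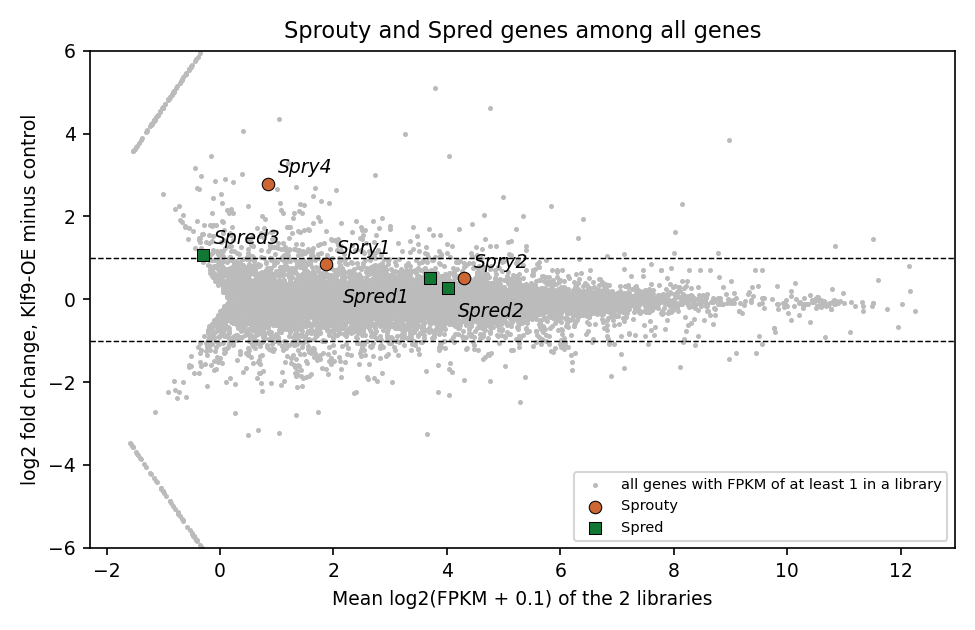
Log2 fold change (Klf9-OE minus control, pseudocount 0.1) against the mean log2(FPKM + 0.1) of the libraries, for genes with an FPKM of at least 1 in at least 1 library (grey, 156 genes beyond 6 in either direction not shown) and for the Sprouty (orange circles) and Spred (green squares) genes. Dashed lines mark 2-fold, and Spry4 lies at 2.79, Spred3 at 1.07 and the other 4 members between 0 and 1.

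The fold differences and the amounts of transcript rank the genes differently. Summed over the 7 genes, the FPKM was 45.6 in control PGCs and 66.9 in Klf9-OE PGCs, 1.47 times as much. Of the summed difference of 21.3, Spry2 made up 32.3%, Spred1 21.4%, Spry4 18.9% and Spred2 14.3%, while Spry1 and Spred3 gave 10.2% and 2.91%. The 4 Sprouty genes summed to 19.6 in control PGCs and 32.7 in Klf9-OE PGCs (1.67 times), and the 3 Spred genes to 25.9 and 34.2 (1.32 times). Sprouty genes were thus 43.1% of the summed FPKM of the family in control PGCs and 48.9% in Klf9-OE PGCs. The order of the 7 genes by level was the same in both libraries, namely Spry2, Spred2, Spred1, Spry1, Spry4, Spred3 and Spry3.

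The other genes of the pathway were taken from lists by role, with the same 2-fold call. Upstream of ERK, the genes that passed it were all growth factor genes at low levels. Of 15 growth factor genes, 1 was called higher, Fgf7, and 3 were called lower, Fgf2, Fgf3 and Fgf9, and each of these 4 was below an FPKM of 1 in both libraries. Beside these counts stand the shares of all genes given above, 9.82% higher and 9.43% lower. Fgf2, which encodes bFGF itself, was at 0.666 (0.222 to 1.11) in control and 0.243 (0 to 0.485) in Klf9-OE PGCs, with overlapping intervals. Pdgfa, the ligand gene with the highest level, was at 13.1 (11.6 to 14.6) in control and 9.16 (8.01 to 10.3) in Klf9-OE PGCs.

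Receptor genes were on the whole lower in Klf9-OE PGCs, none of them 2-fold. Of 11 receptor genes found by symbol, 2 had a higher and 9 a lower FPKM in Klf9-OE PGCs. The median log2 difference was -0.35, against -0.02 over all genes, of which 9.82% were called higher and 9.43% lower. Intervals were apart for 7 receptor genes with Klf9-OE lower (14.4% of single-row genes) and 1 with Klf9-OE higher (11.2%). The 1 was Pdgfrb, at 1.06 (0.880 to 1.24) in control and 1.89 (1.67 to 2.10) in Klf9-OE PGCs. Kit, the receptor for the KIT ligand and also counted among the germ cell markers below, had the highest level of the list, with 23.0 (21.9 to 24.1) in control and 16.8 (16.0 to 17.6) in Klf9-OE PGCs. Fgfr1, which encodes a receptor for bFGF, was at 16.6 (15.6 to 17.5) in control and 15.2 (14.4 to 15.9) in Klf9-OE PGCs, with overlapping intervals. Igf1r, the receptor for insulin-like growth factor, was at 18.5 (17.4 to 19.6) in control and 9.80 (9.48 to 10.1) in Klf9-OE PGCs. Pdgfrb, Fgfr1, Igf1r and the genes named below without a 2-fold difference were chosen after their values were seen, except for the highest gene of each list.

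Next came 8 adaptor and Ras exchange factor genes, 12 genes of Ras, Raf, MEK and ERK, and 10 partner genes of Sprouty and Spred. All were at an FPKM of at least 1 in at least 1 library, and 0 differed 2-fold. Over all genes at such levels, 3.93% were called higher and 3.79% lower. The highest of these lists were Crkl, an adaptor, Map2k2, which encodes a MEK kinase, and Mknk2, which encodes a kinase acting downstream of ERK. Crkl was at 21.0 in control PGCs and 19.1 in Klf9-OE PGCs, Map2k2 at 97.5 and 107, and Mknk2 at 97.2 and 98.1, respectively. Mapk3, an ERK gene, was at 72.6 in control and 48.8 (0 to 11321.6) in Klf9-OE PGCs. Araf was at 51.7 in control and 53.6 (1.39 to 106) in Klf9-OE PGCs. The Klf9-OE intervals of Mapk3 and Araf are too wide to tell whether these genes differed. Nf1, the partner of the Spred proteins, was at 8.63 (8.21 to 9.06) in control and 9.47 (8.97 to 9.97) in Klf9-OE PGCs. The log2 differences of the partner genes lay between -0.33 and 0.22, and the lowest among the 6 Sprouty and Spred genes was 0.27, for Spred2. The family was taken up with its values known, so this order does not set the partner genes apart. The upper end was Cav1, at 3.40 (2.89 to 3.91) in control and 3.97 (3.49 to 4.46) in Klf9-OE PGCs, with overlapping intervals.

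Most genes of the lists downstream of ERK had a higher FPKM in Klf9-OE PGCs, 8 of 10 other feedback inhibitors and 12 of 13 ERK-induced genes. The median log2 difference of the other feedback inhibitors was 0.60, against -0.02 over all genes. All 10 had an FPKM of at least 1 in at least 1 library, where 3.93% of genes were called higher and 3.79% lower. Of the 10, 4 were called higher and 0 lower. The 4 were phosphatase genes of the Dusp family, whose products remove phosphate from MAP kinases. Dusp6, whose product acts on ERK, was at 4.30 (3.81 to 4.79) in control and 14.2 (13.4 to 15.0) in Klf9-OE PGCs, a ratio of 3.31. The ratios of Dusp2, Dusp4 and Dusp5 were 2.96, 2.58 and 2.09, respectively. Dusp9, the highest of the list, was at 48.7 (46.1 to 51.3) in control and 65.2 (62.0 to 68.4) in Klf9-OE PGCs. Il17rd, which encodes the FGF signaling inhibitor Sef, was at 16.2 (15.4 to 16.9) in control and 17.2 (16.4 to 18) in Klf9-OE PGCs, with overlapping intervals.

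The median log2 difference of the 13 transcription factor and target genes known to be induced by ERK signaling was 0.57. Of the 13, 5 were called higher (9.82% of all genes) and 0 lower (9.43% of all genes). The 5 were the ETS factor genes Etv1, Etv4 and Etv5, the immediate early gene Egr1 and the AP-1 gene Fosl1. Etv4 was at 2.26 (1.86 to 2.67) in control and 18.8 (17.5 to 20.1) in Klf9-OE PGCs, a ratio of 8.31, close to that of Spry4. Etv5 was at 12.3 (11.4 to 13.1) in control and 50.6 (48.7 to 52.5) in Klf9-OE PGCs, a ratio of 4.13. Etv1 was at 0.370 (0.248 to 0.492) in control and 1.17 (0.976 to 1.36) in Klf9-OE PGCs. Egr1 was at 3.76 (3.32 to 4.2) in control and 8.45 (7.85 to 9.04) in Klf9-OE PGCs, and Fosl1 was listed at 0 in control PGCs and was at 0.956 in Klf9-OE PGCs. Ier3, the highest of this list in control PGCs, was at 28.6 (26.4 to 30.8) there and at 31.5 (29.4 to 33.6) in Klf9-OE PGCs. A further 5 genes of these lists, Erbb3, Pdgfra, Frs2, Shc1 and Ccnd1, had a row shared with a neighbouring gene in at least 1 library and were not counted.

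**Figure D3:**
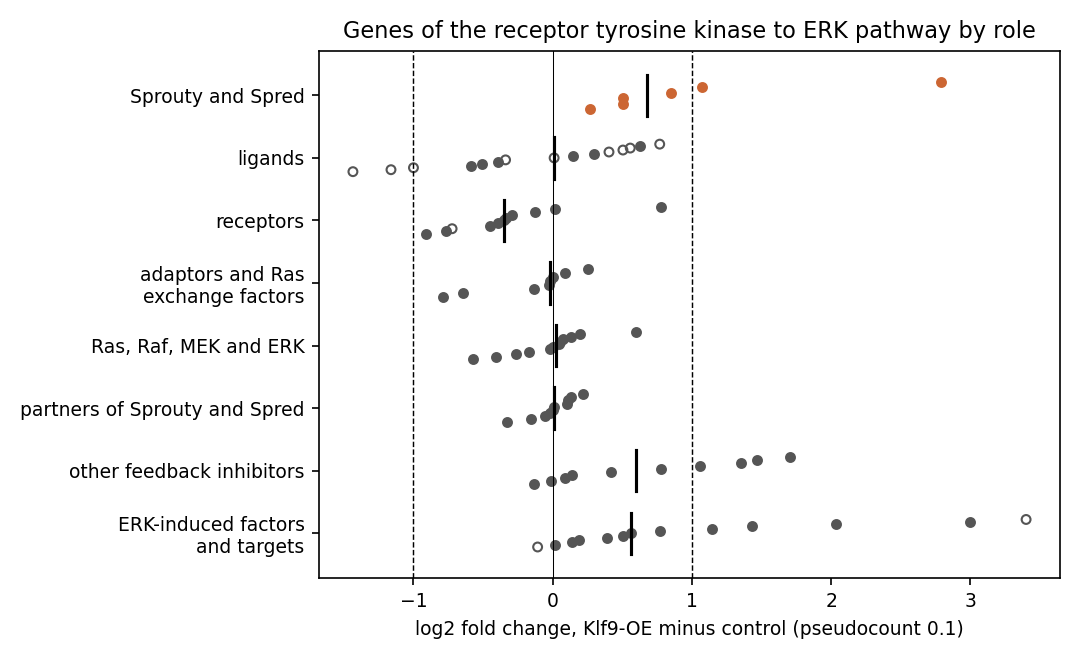
Log2 fold change (Klf9-OE minus control, pseudocount 0.1) of each gene above 0 in at least 1 library, by role in the pathway from receptor tyrosine kinases to ERK. Filled points have an FPKM of at least 1 in at least 1 library, open points do not, black bars are medians and dashed lines mark 2-fold, and the medians of the Sprouty and Spred genes (0.68), the other feedback inhibitors (0.60) and the ERK-induced genes (0.57) lie above those of the lists upstream (-0.35 to 0.02).

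The genes that flank the Sprouty and Spred genes were compared in the same way. The nearest named gene on each side with an FPKM of at least 1 in at least 1 library was taken for the 6 members above 0, at distances of 2.60 to 1342.3 kb. Of these 12 neighbours, 0 were called higher and 1 was called lower, and their ratios ranged from 0.486 to 1.58. Over all genes at such levels, 3.93% were called higher and 3.79% lower, so counts this small do not set the neighbours apart. The neighbour called lower was Gm5148, 69.6 kb above Spry1. It was at an FPKM of 165 (157 to 174) in control and 80.3 (77.2 to 83.4) in Klf9-OE PGCs. Spata5, on the other side of Spry1, was at 169 and 166, respectively. Ndfip1 and Arhgap26, which flank Spry4, had ratios of 0.929 and 0.631, and Fam98c and Psmd8, the close neighbours of Spred3, had ratios of 0.870 and 1.13. Trim52, 209 kb from Spry2, had a ratio of 1.58 and was the only neighbour with a higher ratio than its Sprouty or Spred gene. The remaining neighbours were Ndfip2, BC052040, Fam98b, Meis1 and Actr2.

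Markers of the cell types that a sorted gonad sample could hold were read in both libraries. All 12 germ cell markers, among them Pou5f1, Dppa3, Ddx4 and Dazl, were above 0, and their summed FPKM was 1818 in control PGCs and 1533 in Klf9-OE PGCs, with 1 of the 12 higher and a median log2 difference of -0.30. The summed FPKM of 9 gonad somatic markers was 21.9 in control PGCs and 29.2 in Klf9-OE PGCs, but 4 of the 9 were higher and the median log2 difference was -0.21. Star was listed at 0 in control PGCs and was at 2.39 in Klf9-OE PGCs, and Cyp17a1 was at 0.0666 and 0. The intervals were apart for 4 of the 9 with Klf9-OE higher, namely Star, Amh, Wt1 and Gata4, and for 1 with Klf9-OE lower, Sox9. Of the 12 germ cell markers, they were apart for 1 with Klf9-OE higher and for 9 with Klf9-OE lower. Over all genes with a single row in each file, the shares were 11.2% higher and 14.4% lower. Amh was at 5.99 (5.20 to 6.78) in control and 9.29 (8.41 to 10.2) in Klf9-OE PGCs. Wt1 was at 3.41 and 5.64, and Gata4 at 6.21 and 7.47, respectively. Sox9, a Sertoli cell factor, was at 2.04 (1.76 to 2.31) in control and 1.09 (0.906 to 1.27) in Klf9-OE PGCs. The 5 mesenchymal markers found by symbol summed to 16.3 and 23.6, respectively, with 5 of the 5 higher and a median of 0.46, and Lum was listed at 0 in control PGCs. Pdgfra, also on that list, had a row shared with Mir7025 in both libraries and was not counted. That shared row went the other way, with 3.05 in control and 2.50 in Klf9-OE PGCs. The 6 endothelial markers, none of them at 0, summed to 13.2 and 18.1, with 3 of the 6 higher and a median of 0.14. Cdh5 alone differed 2-fold, from 2.0 (1.66 to 2.33) to 5.09 (4.57 to 5.60), and Tek was at 0.735 (0.574 to 0.896) and 0.439 (0.327 to 0.550). The 7 macrophage and blood markers summed to 1.38 and 1.70, with 1 of the 7 higher and a median of -0.60 over the 6 above 0. Hba-x was at 0 in both libraries, and Csf1r was at 0.307 and 1.18. Somatic cells also express Sprouty and Spred genes, and the part of these marker differences in the values above was not tested.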

How the data were processed

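RNA-seq libraries were made from 500 ng of total RNA of 1 control and 1 Klf9-OE culture and sequenced as 51-mer single-end reads. The authors mapped the reads to mm10 and RefSeq using TopHat2 and Bowtie. They deposited 1 file per library that lists each locus with the FPKM estimated by Cufflinks and its 95% interval. Cufflinks also assembled loci in each library separately. The submitters' processing notes also name Cuffdiff. Tool versions are not given in the sources used here.

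FPKM was summed over rows of a symbol. A gene was called where the ratio of FPKM, without pseudocount, reached 2 or fell to 0.5 or below, and log2 differences used a pseudocount of 0.1, which understates those of low genes. The interval of a ratio combines the relative errors of both Cufflinks intervals with a factor of 1.96. The read number behind a value was taken as the square of 2 FPKM over the distance to the upper bound. With 1 library per condition no test, replicate block or leaving out of a replicate was possible. Depth is unknown beyond the relative value given, and all intervals cover estimation error only.

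The members and lists were chosen with earlier results of these data known. Genes named were the members, Klf9, genes of the pathway lists past 2-fold with an FPKM of at least 1, the highest gene of each pathway list in control PGCs, and the nearest neighbours, and others are said to be chosen after their values were seen. Fgf2, Fgf3, Fgf7, Fgf9, Fosl1 and the marker genes were also named after their values were seen. Alternatives were pseudocounts of 0.01 and 1, filters on low FPKM, scaling to the same upper quartile or sum, the highest row of a symbol, ratios of 1.5 and 4, and widened Klf9-OE intervals. Steps were tested on simulated data. Exons and coding lengths came from GENCODE M21, and upstream sequences from RefSeq. Protein sequences were not used here. The value of 1 marker gene is not reported here. Python 3.11.15, numpy 2.4.6, pandas 2.3.3 and matplotlib 3.10.9 were used.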

Additional observations from a re-analysis of the deposited data

Results flagged for a closer look

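Loci without a gene name entered no comparison, and they were looked at within 50 kb of the Sprouty and Spred genes because they hold signal outside the genes compared. Such loci numbered 8 in control PGCs and 19 in Klf9-OE PGCs, a ratio of 2.38, near the ratio of 2.33 over the whole files (6482 and 15127 loci). Near Spry2 there were 0 in control PGCs and 3 in Klf9-OE PGCs. The nearest of them upstream began 412 bases before the start of Spry2, on chromosome 14 from 105897231 to 105897516, and had an FPKM of 12.9 (8.72 to 17.1), with 37.6 implied reads. A second lay 799 bases upstream, from 105897618 to 105897884, at an FPKM of 5.81 (2.71 to 8.92). Near Spry4, 3 loci in control PGCs and 7 in Klf9-OE PGCs were listed, and loci between 28.3 and 35.3 kb upstream made up 3 of those in control and 6 of those in Klf9-OE PGCs. The strand of these loci is not in the files, and the difference in their number was not tested.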

How the results depend on the processing

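The direction of all 6 Sprouty and Spred genes above 0 was the same in each setting, but none of the settings could have reversed it. Pseudocounts and filters leave the sign of a difference as it is, and each member has a single row. Both scalings multiplied the Klf9-OE values by factors above 1 (1.02 for the upper quartile and 1.04 for the sum). With a pseudocount of 1, which enters the ratio too, the log2 difference of Spry4 was 1.83 instead of 2.79, and 1 member instead of 2 was at least 2-fold higher. With a ratio of at least 4 it was also 1. In both cases this was Spry4, since Spred3 fell short. The other values of the members moved by less than the half-width of their intervals, and the other counts of members by no more than 1.5 times. Over all genes, 1841 were at least 2-fold higher and 1768 lower, against 308 and 288 with a pseudocount of 1, 494 and 476 with an FPKM of at least 1, 1092 and 836 with an FPKM above 0 in both libraries, 1001 and 1057 at 4-fold, and 3014 and 2822 at 1.5-fold. The scalings moved the median of all genes by less than 0.1. Counts in the lists moved by over 1.5 times as follows. The ERK-induced genes higher went from 5 to 2 with a pseudocount of 1 and to 3 at 4-fold, and the other feedback inhibitors from 4 to 0 at 4-fold. The ligand genes higher went from 1 to 0, and those lower from 3 to 0, with a pseudocount of 1 or an FPKM of at least 1, and those lower to 1 at 4-fold. At 1.5-fold, 5 ligand genes, 1 receptor gene and 1 gene of Ras, Raf, MEK and ERK were higher, and 3 receptor and 2 adaptor and Ras exchange factor genes were lower. No paired analysis was possible because each condition has a single library, and for the same reason no replicate could be left out.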
